A study of Homo sapiens with 8 samples.

Results

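Cancer-testis antigen families were described in the transcriptome of UWB1.289, an established line of human ovarian cancer cells. Members were every row of the count table whose symbol begins with MAGEA, MAGEB, MAGEC, GAGE, PAGE, XAGE, SSX, CTAG or SPANX, together with PASD1 and SYCP1. This rule took 100 of 25369 named genes, 88 of them on chromosome X. It held 15 MAGEA, 10 MAGEB, 3 MAGEC, 22 GAGE, 6 PAGE, 6 XAGE, 11 SSX, 3 CTAG and 11 SPANX rows, PASD1, SYCP1, and 11 rows that share only the first letters of a family name. The latter are SSX2IP, which encodes a binding partner of SSX2, and 10 CTAGE genes, and they are described apart from the other 89.

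Poly(A) RNA was sequenced in 8 libraries that form 4 groups of 2. BRCA1-null cells are UWB1.289 itself, which carries a truncating BRCA1 mutation, and BRCA1+ cells are the same line after transduction with BRCA1. Each line was kept for 24 h in 0.5 uM entinostat, an inhibitor of the histone deacetylases HDAC1 and HDAC3, or in the DMSO vehicle, called control. The groups are therefore BRCA1+ control, BRCA1+ entinostat, BRCA1-null control and BRCA1-null entinostat. Each genotype is 1 cell line, so the restored BRCA1 cannot be told apart from anything else in which the lines differ, and where nothing states separate cultures the p-values measure only the spread between these libraries.

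Cancer-testis antigens are proteins whose genes are transcribed mainly in male germ cells and placenta, are silent in most other healthy tissue, in large part through promoter DNA methylation, and are switched on again in some tumours. Many lie on chromosome X in tandem arrays of near-identical copies. MAGE proteins of the A, B and C groups bind RING ubiquitin ligases, SSX proteins are nuclear repressors known from the SS18-SSX fusions of synovial sarcoma, CTAG1B encodes the vaccine antigen NY-ESO-1, SPANX proteins belong to the sperm nucleus, and SYCP1 forms the transverse filaments of the synaptonemal complex. PASD1 is a PAS domain protein related to CLOCK that is known to inhibit the CLOCK-BMAL1 complex of the circadian clock.

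The sequences before the annotated start are shown for PASD1, the member with by far the most reads, and for the near-identical copies MAGEA3 and MAGEA6. Each is the 250 bases upstream of the start given in the count table, on GRCh37 (hg19), 5′ to 3′ on the gene's strand, with CpG dinucleotides in capitals. The window of PASD1 is chrX:150731757-150732006 on the plus strand, that of MAGEA3 chrX:151938241-151938490 on the minus strand and that of MAGEA6 chrX:151866995-151867244 on the plus strand.
PASD1: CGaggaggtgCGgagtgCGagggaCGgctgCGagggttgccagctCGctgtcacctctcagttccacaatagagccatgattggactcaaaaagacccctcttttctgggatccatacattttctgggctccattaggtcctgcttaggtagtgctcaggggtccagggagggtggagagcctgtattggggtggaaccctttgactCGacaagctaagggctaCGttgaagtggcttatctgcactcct
MAGEA3: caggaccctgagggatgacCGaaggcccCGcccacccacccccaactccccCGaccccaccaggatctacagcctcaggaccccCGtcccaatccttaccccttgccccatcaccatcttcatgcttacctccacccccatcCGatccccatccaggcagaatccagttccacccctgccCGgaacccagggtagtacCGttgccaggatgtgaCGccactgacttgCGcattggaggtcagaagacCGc
MAGEA6: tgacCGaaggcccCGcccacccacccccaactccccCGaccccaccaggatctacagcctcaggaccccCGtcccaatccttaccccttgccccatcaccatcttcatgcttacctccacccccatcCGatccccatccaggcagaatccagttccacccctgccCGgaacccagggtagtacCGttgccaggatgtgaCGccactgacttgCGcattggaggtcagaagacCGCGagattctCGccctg

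PASD1 had 8 CpG, MAGEA3 had 10 and MAGEA6 had 12, against a median of 12 over the 25077 rows whose window could be read and of 8 over the 89 members. MAGEA3 and MAGEA6 lie on opposite strands, and their windows were identical over all 235 bases that overlapped once shifted by 15 bases. Both strands were searched for CCGGAA (an ETS core), GGGCGG (the Sp1 GC box), CACGTG (an E-box) and TCCCGC (an E2F core), with no overlap between the motifs. None of them was in the PASD1 window. The MAGEA3 and MAGEA6 windows each held CCGGAA and GGGCGG, which were present in 14.2% and 45.0% of all windows. Among the 89 members CCGGAA was in 8 windows (8.99%) and GGGCGG in 23 (25.8%). CACGTG was in 18 (20.2%, against 6.55% of all windows), of which 10 belonged to GAGE copies, and TCCCGC in 31 (34.8%, against 24.6%), of which 21 belonged to GAGE copies. These copies repeat the same sequence and are not independent of each other.

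The libraries held 31900158 to 53549893 counts. A gene with no read could have had up to 3 counts, or 0.0552 to 0.0946 CPM (counts scaled to library size after TMM correction), and all such limits and intervals cover counting error only. BRCA1 itself had 3954 to 5473 counts in the 4 BRCA1+ libraries and 800 to 1218 in the 4 BRCA1-null libraries, so the libraries fell by their labels. All 9 ovarian carcinoma markers passed the filter on low counts, although WT1 stayed at or below 0.420 CPM in every group mean. None of 6 germ cell markers passed it, with a summed level of 0.0239 to 0.277 CPM per library, and PRM1, PRM2 and TNP1 were at 0 in every library. The 4 leukocyte markers summed to 5.78 to 10.4 CPM in BRCA1+ and 3.13 to 6.42 CPM in BRCA1-null libraries, with CD3E at 0 to 4 counts, and the 2 endothelial markers to 4.60 to 10.1 and 5.45 to 7.17 CPM. The leukocyte sum was thus higher in BRCA1+ cells in both treatments, as PASD1 was, and its part in the results was not tested.

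Most members had few reads or none in all 4 groups. Of the 89 members, 51 (57.3%) had no read in any of the 8 libraries, compared with 3229 (12.7%) of all named genes. A further 19 members never exceeded 3 counts in a library, 14 peaked at 4 to 9 counts, and 5 reached 10 counts or more. These 5 were PASD1, MAGEA10, MAGEB10, SPANXA2-OT1 and SSX8. The rows at 0 were spread over the families, with 21 of 22 GAGE, 7 of 10 MAGEB, 5 of 6 XAGE, 5 of 11 SPANX, 4 of 15 MAGEA, 3 of 6 PAGE, 2 of 11 SSX, 2 of 3 CTAG and 1 of 3 MAGEC rows at 0. SYCP1 was at 0 in every library.

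**Figure D1:**
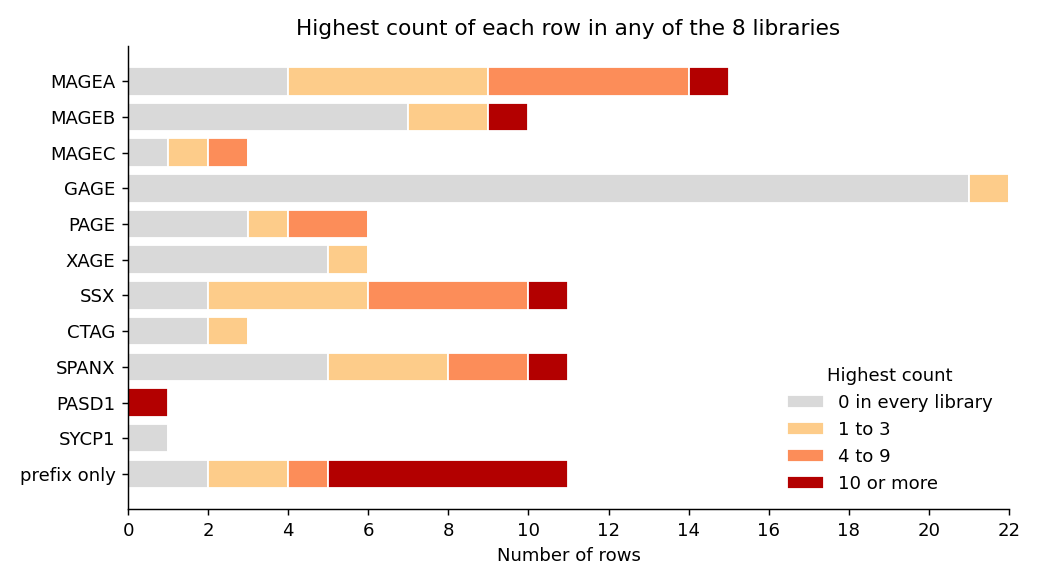
Rows of each family by the highest raw count that the row reached in any of the 8 libraries, with the number of rows on the horizontal axis and rows that share only the first letters of a family name in the last bar. Grey marks rows at 0 in every library, which make up 21 of 22 GAGE rows, and dark red marks rows that reached 10 counts or more.

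A count of 0 has to be read against the near-identity of many of these genes. The share of a gene's exonic stretches of 50 bases that occur at 2 or more places of GRCh37 was computed for the 76 members whose symbol or older symbol could be placed in the GENCODE annotation at the same position. The read length is not given in the sources used here, so the 50 bases stand for a short read only. The share was over 50% in 36 members and under 10% in 30. The median share was 92.9% among the 44 members at 0 and 12.3% among the 32 members with a count.

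The 27 members at 0 with a share over 50% were 15 GAGE copies, MAGEA2, MAGEA2B, MAGEA9, MAGEA9B, CTAG1A, CTAG1B, SSX4, SSX4B, XAGE1B, XAGE1E, XAGE2 and SPANXB1. How reads with several positions were counted is not stated. Outside the members, the duplicated gene SMN1, with a share of 91.5%, had 65 to 118 counts per library. HPRT1, with a share of 0%, had 2940 to 5963. Whether the counting of shared reads made this difference was not tested. For members of this kind the files give a 0 in the table, and transcription below this limit of detection and reads left uncounted cannot be told apart.

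The 16 members at 0 with a share under 10% have few such stretches. They were MAGEB1, MAGEB3, MAGEB4, MAGEB5, MAGEB16, MAGEB17 and MAGEB18, MAGEC2, PAGE3, PAGE4, SPANXN1 to SPANXN4, XAGE5 and SYCP1. No read was counted for these genes at this depth in either line, with or without entinostat. Whether a 0 here came from a lack of transcripts or from the annotation and counting was not tested.

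**Figure D2:**
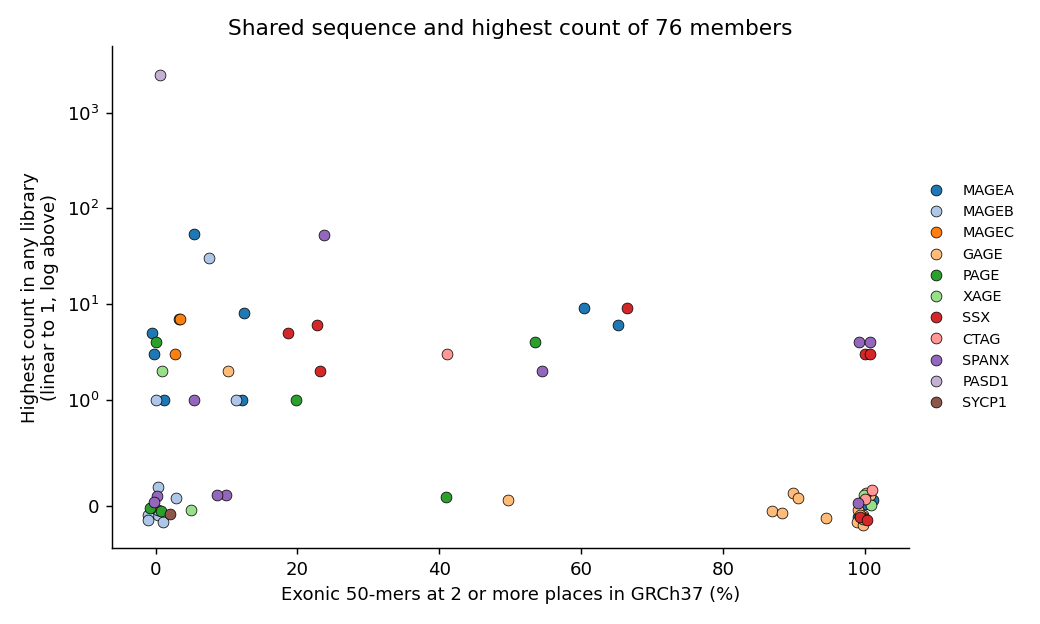
Share of exonic 50-base stretches found at 2 or more places in GRCh37 (horizontal axis, %) against the highest raw count in any library (vertical axis, linear to 1 and logarithmic above) for 76 members, coloured by family, with points shifted slightly so that they can be told apart. PASD1 stands at 0% shared and 2512 counts, and 27 members lie at 0 counts with over 50% shared.

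Some rows that share a span had the same counts. SSX2 and SSX2B are listed over the same span (chrX:52725946-52790617) with the same count in every library, between 0 and 3. SPANXA1 and SPANXA2 had identical counts (4 in each BRCA1-null control library and 0 elsewhere), and so had MAGEA5 and the read-through row MAGEA10-MAGEA5 (2 in each BRCA1+ entinostat library and 0 elsewhere). Of the 89 members, 49 overlapped another row of the table on either strand. The library kit as named does not mark the strand, so overlapping rows on opposite strands cannot be separated.

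PASD1 was transcribed in BRCA1+ cells and nearly absent from BRCA1-null cells. The gene (chrX:150732007-150845211, plus strand) had 1911 and 2356 counts in BRCA1+ control libraries and 1629 and 2512 in BRCA1+ entinostat libraries. It had 3 and 2 counts in BRCA1-null control libraries and 1 in each BRCA1-null entinostat library. The libraries of the lines did not overlap, and none of the gene's 50-base stretches occurred at a second place in the genome.

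The level of PASD1 was 49.6 ± 2.50 CPM (SD, n = 2) in BRCA1+ control and 52.8 ± 1.96 CPM in BRCA1+ entinostat cells, against 0.0514 ± 0.0206 and 0.0226 ± 0.00185 CPM in the corresponding BRCA1-null groups. The ratio of the lines was 992 in control libraries (95% exact counting interval 425 to 3058) and 2350 in entinostat libraries (650 to 19412). Over the 4 libraries a line it was 1381 (670 to 3436). In edgeR's quasi-likelihood fit over 17714 genes the p adjusted by Benjamini-Hochberg was 3.03e-11 in control and 3.39e-11 in entinostat. It had the smallest p-value of all tested genes in both comparisons, and the second largest absolute log2 fold change in control cells.

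Per kilobase of its 3250-base gene model, PASD1 reached a level of 15.2 CPM in BRCA1+ control cells, above 71.7% of the tested genes, whose median was 5.33 CPM per kb. In BRCA1-null control cells its level was 0.0158 CPM per kb, above 0.418% of them. PASD1 alone made up 95.3% to 96.4% of all reads counted for the 89 members in BRCA1+ libraries and 1.05% to 2.97% in BRCA1-null libraries. Without PASD1 the members summed to 71 to 121 counts in BRCA1+ and 55 to 161 in BRCA1-null libraries, so the remaining families together overlapped between the lines.

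In BRCA1+ cells the difference of PASD1 with entinostat did not pass the test, with a log2 fold change of 0.09 ± 0.0649 (SE, adjusted p = 0.397 by edgeR). In BRCA1-null cells the counts of 1 to 3 per library were at the limit of detection with and without the drug, and no fold is given.

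**Figure D3:**
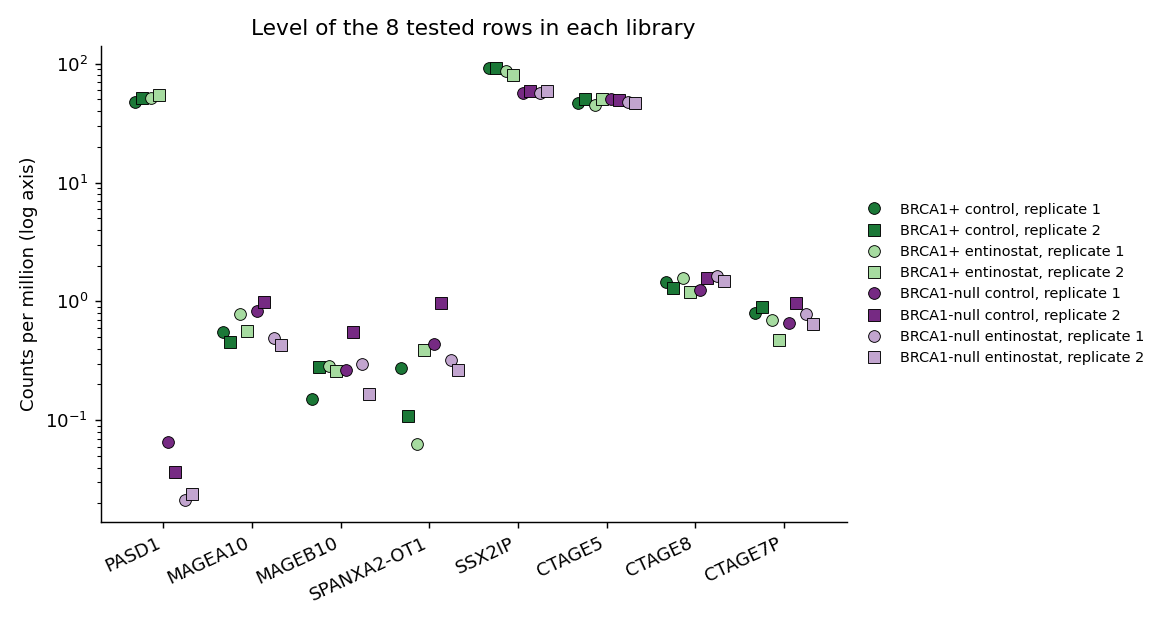
CPM (logarithmic axis) of the 8 rows that passed the filter on low counts, 1 point per library, green for BRCA1+ and purple for BRCA1-null cells, dark for control and light for entinostat. PASD1 lies near 50 CPM in BRCA1+ libraries and below 0.07 in BRCA1-null libraries, while no other row separates the lines by as much.

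None of the rows next to PASD1 that could be tested differed between the lines by nearly as much. Of the 5 rows on either side, HMGB3, VMA21 and GABRE were tested. HMGB3, a chromatin protein gene, had a log2 fold change (BRCA1-null minus BRCA1+, control) of 0.04 (adjusted p = 0.593). VMA21, which serves assembly of the vacuolar ATPase, was higher by 0.26 (adjusted p = 0.0236), and GABRE, a GABA-A receptor subunit gene, was lower, at -0.84 (adjusted p = 0.0449). CD99L2, MIR4330, the cancer-testis gene FATE1 and the channel gene CNGA2 were listed at 0, while MAGEA4 had 1 count, GPR50 had 2 and PRRG3 had 6 over all libraries. These rows had too few reads to show a pattern, and whether a 0 came from the annotation and counting was not tested. Of 606 tested genes on chromosome X, 172 were higher and 82 lower in BRCA1-null control cells, with a median log2 fold change of 0.14. Of all 17714 tested genes 3745 (21.1%) were higher and 3727 (21.0%) lower, with a median of 0.01. Genes on chromosome X thus leaned upward in BRCA1-null cells, opposite to PASD1.

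The genes whose log2 CPM followed PASD1 most closely over the 8 libraries were TTC38, EZR-AS1, SPRY1, APLP2 and RNF130, with Pearson's r of 0.998 for each, among 13114 genes compared. All were higher in BRCA1+ cells, by far smaller factors. SPRY1, an inhibitor of receptor tyrosine kinase signalling, averaged 20.7 CPM in BRCA1+ control and 3.34 CPM in BRCA1-null control, and APLP2, an amyloid precursor-like protein gene, 1691 and 570 CPM. The likeness reflects the separation of the lines, which all 8 points share.

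Of the 100 rows, 8 passed the filter on low counts, and 4 of these were members proper (PASD1, MAGEA10, MAGEB10 and SPANXA2-OT1). Between the lines in control cells 4 of the 8 were called at an adjusted p under 0.05, against a background of 42.2% of all tested genes (21.1% up and 21.0% down in the BRCA1-null line). MAGEA10 and SPANXA2-OT1 were higher, and PASD1 and SSX2IP were lower. Between the lines in entinostat PASD1 and SSX2IP were lower and no member was higher, where 39.4% of all tested genes were called (20.5% higher, 18.9% lower). With so few rows tested, these shares say little beside the background.

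MAGEA10, a MAGE gene of the distal Xq cluster (chrX:151301783-151307050, minus strand), was present at a low level in every library. It had 22 and 21 counts in BRCA1+ cells under DMSO and 25 and 26 under entinostat, while the BRCA1-null libraries had 38 and 54 under DMSO and 23 and 18 under entinostat. The BRCA1-null control libraries lay above all others. In CPM the group means were 0.504 ± 0.0656 (SD, n = 2), 0.674 ± 0.161, 0.914 ± 0.112 and 0.461 ± 0.0421 in the same order.

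Between the lines in control cells the log2 fold change of MAGEA10 was 0.87 ± 0.300 (adjusted p = 0.0421, edgeR), a call that was lost in 13 of the alternative settings, among them leaving out any 1 of the 8 libraries (adjusted p = 0.0504 to 0.205). In entinostat it was -0.50 ± 0.347 (adjusted p = 0.294). With entinostat the value was 0.38 ± 0.343 in the BRCA1+ line (adjusted p = 0.521), while it was -0.99 ± 0.303 in BRCA1-null cells (unadjusted p = 0.00964, adjusted p = 0.0701). The difference between the responses of the lines was -1.37 ± 0.461 (unadjusted p = 0.0152, adjusted p = 0.967), which did not pass the test. Of its 50-base stretches 4.85% occurred elsewhere. GRB2, VSTM4, PPIL6, ZNF793 and LOC100506746 were most like it over the 8 libraries (r = 0.881 to 0.917). The highest of 13114 correlations over 8 libraries can reach such values without a relation, here and for the rows below, which was not tested.

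MAGEB10, of the Xp cluster (chrX:27826107-27841131, plus strand), had 6 and 13 counts in BRCA1+ cells under DMSO and 9 and 12 under entinostat, while the BRCA1-null libraries had 12 and 30 under DMSO and 14 and 7 under entinostat. The groups overlapped apart from the highest library, a BRCA1-null control. No comparison passed the test, with log2 fold changes of 0.92 ± 0.508 between the lines in control (adjusted p = 0.178) and -0.82 ± 0.495 with entinostat in BRCA1-null cells (adjusted p = 0.328). Its closest genes were RFC2, LOC100506083, PAXBP1-AS1, EFCAB11 and DLK2 (r = 0.904 to 0.925).

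SPANXA2-OT1 is a long non-coding transcript whose row spans SPANXA1 and SPANXA2 (chrX:140590843-140738069). It had 11 and 5 counts in BRCA1+ cells under DMSO and 2 and 18 under entinostat, while the BRCA1-null libraries had 20 and 53 under DMSO and 15 and 11 under entinostat. The control libraries of the lines did not overlap, while replicates within a group differed by several fold. The log2 fold change between the lines in control cells was 1.95 ± 0.638 (adjusted p = 0.0351), and it was no longer called without BRCA1+ control replicate 1 (2.71, adjusted p = 0.0535), BRCA1+ control replicate 2 (1.40, adjusted p = 0.206) or BRCA1-null control replicate 2 (1.22, adjusted p = 0.245). In BRCA1-null cells the value with entinostat was -1.31 ± 0.566 (unadjusted p = 0.0461, adjusted p = 0.174). ZNF34, ERLEC1, PPP4C, AGPAT6 and ZNRF3-AS1 were most like it (r = 0.915 to 0.941).

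Several members below the filter had reads mainly in 1 line. These are named after their values were seen, apart from SSX8, which reached 10 counts, and their ratios carry exact counting intervals that leave out the spread between libraries. The share of all genes whose lines do not overlap is not given here, and 42.2% of all tested genes were called between the lines in control. MAGEA3 and MAGEA6, long-studied targets of tumour vaccines, had 4 to 6 and 5 to 9 counts in every BRCA1+ library, and 0 to 1 in every BRCA1-null library. The lines did not overlap in either gene, and summed over the 4 libraries a line the ratio was 25.3 for MAGEA3 (22 against 1 count, interval 4.09 to 1044) and 14.9 for MAGEA6 (26 against 2 counts, 3.74 to 130).

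These copies cannot be fully separated. Their coding sequences of 942 bases, each within 1 exon, differed at 18 positions (98.1% identity), with a longest run of 308 bases without a difference, and 42.7% of coding windows of 50 bases were identical. Over the whole exons 64.6% of the 50-base stretches of MAGEA3 and 60.9% of those of MAGEA6 occurred at 2 or more places. The first in-frame stretch of 90 coding bases that holds the most differences is shown for both, from coding position 544 to 633 counted from the start codon, with the 4 differing bases in capitals. It lies at chrX:151935534-151935623 on the minus strand for MAGEA3 and at chrX:151869854-151869943 on the plus strand for MAGEA6.
MAGEA3: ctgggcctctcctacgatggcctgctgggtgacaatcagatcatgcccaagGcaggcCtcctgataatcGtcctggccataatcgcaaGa
MAGEA6: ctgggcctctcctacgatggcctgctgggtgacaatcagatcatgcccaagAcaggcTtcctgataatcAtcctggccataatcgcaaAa

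A read that covers one of the capitals differs between MAGEA3 and MAGEA6, whereas one from the identical runs does not, so the values of MAGEA3 and MAGEA6 are uncertain between the copies. Other MAGEA genes were not compared at these bases. MAGEA12, their neighbour, had 3 to 8 counts in BRCA1+ and 0 to 7 in BRCA1-null libraries, which overlapped (25 against 11 counts, ratio 2.61, interval 1.24 to 5.88). MAGEA1, the founding gene of the MAGE family, had 14 against 9 counts (ratio 1.79, interval 0.721 to 4.68), which counting error alone can span.

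SSX8 and SSX7, adjacent genes on Xp, followed the same direction as MAGEA3. SSX8 had 3 and 5 counts in BRCA1+ control, 3 and 12 in BRCA1+ entinostat, 0 in both BRCA1-null control libraries, and 1 and 0 in BRCA1-null entinostat libraries. Every BRCA1+ library lay above every BRCA1-null library, with 23 against 1 count (ratio 26.4, interval 4.29 to 1089). SSX8 was not among the 76 members whose shared sequence was computed, so how far its reads are shared with other copies is not known. SSX7 had 0 to 9 counts in BRCA1+ and 0 to 1 in BRCA1-null libraries, which overlapped at 0 (15 against 1 count, ratio 17.2, interval 2.65 to 726), and 65.4% of its 50-base stretches were shared. SSX5 (11 against 4 counts, ratio 3.16, interval 0.937 to 13.6) and SSX1 (7 against 1 count, ratio 8.05, interval 1.03 to 363) overlapped between the lines.

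Without the filter edgeR called MAGEA6 (adjusted p = 0.00399) and MAGEA3 (adjusted p = 0.0413) lower in BRCA1-null control cells, and MAGEA3, MAGEA6 and SSX8 lower in BRCA1-null entinostat cells. In that setting 5 of 47 tested rows of the prefix rule were called in control and 5 in entinostat. Of all 22140 genes tested so, 32.4% were called in control and 30.6% in entinostat, so these calls do not set the families apart.

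A few genes went the other way. MAGEC3 had 2 to 7 counts in BRCA1-null libraries and 0 to 2 in BRCA1+ libraries (2 against 18 counts, BRCA1+ over BRCA1-null ratio 0.128, interval 0.0144 to 0.534), and the ranges touched at 2 counts. SPANXA1, counted once with its twin SPANXA2, had its 8 counts in the BRCA1-null control libraries alone, and PAGE1 had 5 counts over the BRCA1-null libraries and 0 in BRCA1+ libraries. In GAGE, XAGE and CTAG no row exceeded 3 counts in any library, and the single GAGE row with reads was GAGE1, with 2 counts in 1 BRCA1+ entinostat library.

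**Figure D4:**
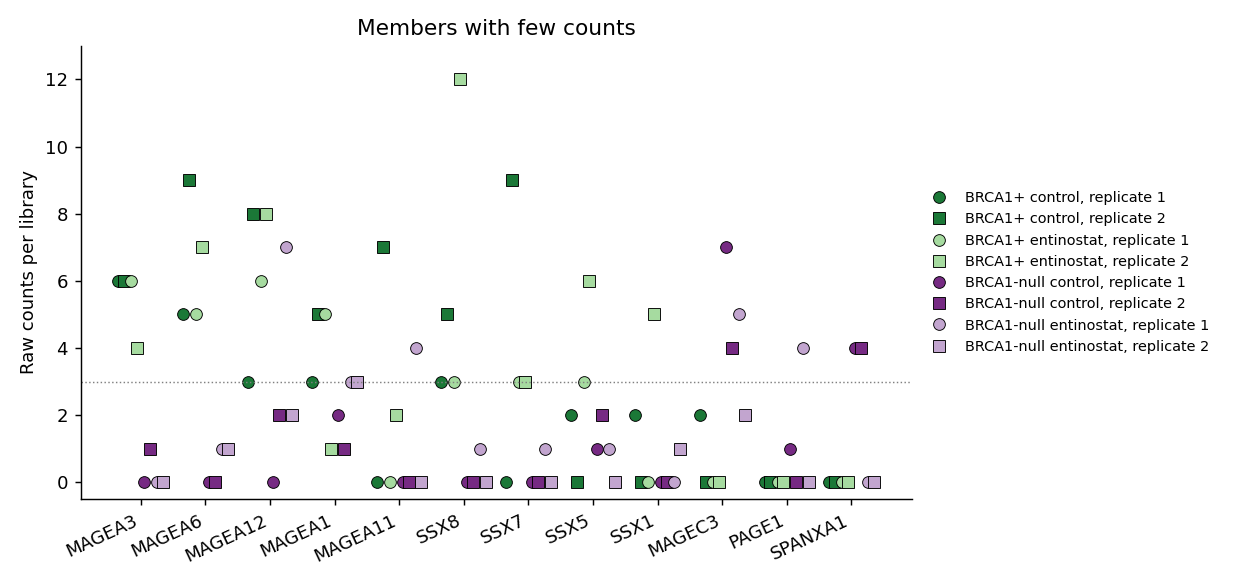
Raw counts per library of 12 members that peaked at 12 counts or fewer, chosen after their values were seen, with green points for BRCA1+ and purple points for BRCA1-null libraries (dark control, light entinostat) and a dotted line at 3 counts. MAGEA3, MAGEA6 and SSX8 separate the lines, while MAGEA12, MAGEA1 and SSX5 overlap. MAGEA3 and MAGEA6 share sequence, and the share of all genes that separate the lines is not given here.

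Since near-identical copies can exchange reads, counts were also summed by family and tested in the same way. The sums take every row, so rows with identical counts (SSX2 and SSX2B, SPANXA1 and SPANXA2, MAGEA5 and MAGEA10-MAGEA5) enter more than once. The MAGEA sum was 40 to 58 counts in BRCA1+ and 24 to 59 in BRCA1-null libraries, which overlapped. MAGEA10 alone gave 94 of its 204 counts in BRCA1+ and 133 of its 164 counts in BRCA1-null libraries. Under DMSO the direction of MAGEA10 was opposite to that of MAGEA3 and MAGEA6. The log2 fold changes of the MAGEA sum between the lines were -0.20 ± 0.303 (adjusted p = 0.625) under DMSO and -0.89 ± 0.328 (adjusted p = 0.0575) under entinostat. The SSX sum without SSX2IP was 7 to 35 against 3 to 10 counts, with values of -1.77 ± 0.738 (adjusted p = 0.0818) under DMSO and -1.57 ± 0.563 (adjusted p = 0.0523) under entinostat. Neither sum passed the test as computed, but under entinostat both lay near its threshold. With the rows of identical counts entered once, a setting chosen after seeing the data, the SSX sum was lower in BRCA1-null cells by edgeR, at -2.17 under DMSO (adjusted p = 0.0458) and -1.85 under entinostat (adjusted p = 0.0258), and the MAGEA sum was not called (adjusted p = 0.623 and 0.0731). With the replicate number as a block edgeR called the SSX sum under DMSO (-1.78, adjusted p = 0.0328) and under entinostat (-1.47, adjusted p = 0.0253) and the MAGEA sum under entinostat (-0.90, adjusted p = 0.0474). Single libraries also decided the SSX value. It was -2.24 without BRCA1+ control replicate 1 (adjusted p = 0.0497) and -0.94 without replicate 2 under DMSO, and -1.97 without BRCA1+ entinostat replicate 1 (adjusted p = 0.0237) and -0.71 without replicate 2 under entinostat.

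The SPANX sum was 14 and 6 counts in BRCA1+ control and 30 and 61 in BRCA1-null control libraries, of which SPANXA2-OT1 gave 11 and 5, and 20 and 53. It was higher in BRCA1-null cells by 1.95 ± 0.551 (adjusted p = 0.0192, and 0.0300 with rows of identical counts entered once). This call was lost with DESeq2's Wald test (1.90, adjusted p = 0.0612), without BRCA1+ control replicate 2 (1.37, adjusted p = 0.146) and without BRCA1-null control replicate 2 (1.49, adjusted p = 0.123). The MAGEB sum was 6 to 13 against 7 to 31 counts, nearly all of it from MAGEB10, and did not pass the test. MAGEC, GAGE, PAGE, XAGE and CTAG sums did not pass the filter on low counts, with 4 and 22, 2 and 0, 5 and 7, 0 and 2, and 3 and 4 counts over all BRCA1+ and all BRCA1-null libraries. For the same reason no genes of like pattern were sought for MAGEC, GAGE, PAGE and XAGE.

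No member passed the test with entinostat in either line. By edgeR 0 of the 8 tested rows were called in BRCA1+ cells, where 14.1% of all tested genes were called (8.13% upward), and 0 in BRCA1-null cells, where 10.8% were called (7.57% upward). With 8 rows tested, 0 calls cannot be set apart from these shares. At an unadjusted p under 0.05 there was 1 row in BRCA1+ cells (SSX2IP) and 2 rows in BRCA1-null cells (MAGEA10 and SPANXA2-OT1), each with a negative value, and DESeq2 called 0 in both lines. For the difference between the responses 0% of all tested genes and no member were called, with 1 row, MAGEA10, at an unadjusted p under 0.05. No member at 0 in both control groups exceeded 4 counts in an entinostat library.

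Among the rows that share only the first letters of a family name, SSX2IP, CTAGE5, CTAGE8 and CTAGE7P were tested. SSX2IP, a centrosomal and junctional protein gene on chromosome 1, was at 92.6 and 92.7 CPM in BRCA1+ cells under DMSO and 86.2 and 80.2 under entinostat, while the BRCA1-null libraries had 57.1 and 59.1 under DMSO and 56.1 and 58.6 under entinostat. All BRCA1+ libraries lay above all BRCA1-null libraries, with log2 fold changes of -0.67 ± 0.0627 (adjusted p = 4.56e-05) under DMSO and -0.54 ± 0.0635 (adjusted p = 0.000188) under entinostat. CNOT6, SPDL1, ZBTB40, STX17 and LINC-ROR followed it most closely (r = 0.993 to 0.997).

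CTAGE5, which serves export of large cargo from the endoplasmic reticulum, ranged from 45.0 to 50.8 CPM, CTAGE8 from 1.21 to 1.62 CPM and CTAGE7P from 0.474 to 0.975 CPM, and none was called in any comparison. TMPPE, COG8, ERGIC3, ECHS1 and HAS3 were most like CTAGE5 (r = 0.864 to 0.910). CTAGE4 reached 11 counts and CTAGE11P 10 counts in a library, and the other rows of this kind stayed at or below 4. CTAGE4 and CTAGE8 overlap on chromosome 7 and share 99.2% and 100% of their 50-base stretches, so their counts are uncertain between the copies.

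Other cancer-testis genes, outside the prefix families, were more often measurable. Of 125 such genes 120 were in the table and 49 were tested, and between the lines in control cells 12 were higher and 13 lower in BRCA1-null cells, 25 of 49 against a background of 42.2% of all tested genes, with a median log2 fold change of 0.05 (0.01 over all tested genes). PRAME, a leucine-rich repeat antigen named here for its level, averaged from 83.3 CPM (BRCA1+ control) to 118 CPM (BRCA1-null entinostat). The largest differences upward were those of LDHC, the testis lactate dehydrogenase (0 and 2 counts in BRCA1+ control against 23 and 4 in BRCA1-null control, adjusted p = 0.0430), GPAT2 (2.43 ± 0.420, adjusted p = 0.00163) and AKAP3, a sperm tail anchoring protein gene (2.06 ± 0.305, adjusted p = 0.000667). The largest downward were those of DDX43, a helicase gene (-1.85 ± 0.139, adjusted p = 1.46e-05), STK31 (-1.29 ± 0.363, adjusted p = 0.0189) and TMEFF1 (-1.10 ± 0.158, adjusted p = 0.000569).

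This list held genes that rose with entinostat. Of the prefix rule's rows only 8 were tested, too few for their 0 calls to show a difference from this list. The difference between the lists was not tested. In BRCA1+ cells 8 of 49 were higher and 1 lower (18.4%), where 14.1% of all tested genes were called and 8.13% were higher. In BRCA1-null cells 9 of 49 were higher and 1 lower (20.4%), where 10.8% of all tested genes were called and 7.57% were higher. PLAC1, an X-linked placental gene, rose by 1.81 ± 0.403 (adjusted p = 0.0202) and 1.34 ± 0.304 (adjusted p = 0.0266) in the BRCA1+ and the BRCA1-null line. ELOVL4, a fatty acid elongase gene, rose by 1.71 ± 0.203 (adjusted p = 0.00152) and 1.61 ± 0.212 (adjusted p = 0.00331). TEX15, required for germ cell meiosis, rose by 1.27 ± 0.167 (adjusted p = 0.00231) and 1.22 ± 0.189 (adjusted p = 0.00656). These 3 genes had the largest increases in the list among those called in both lines.

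The type II MAGE genes, which share the MAGE domain but are expressed widely, had 9 of 12 tested, with 3 higher and 4 lower in BRCA1-null control cells (77.8%, all tested genes 42.2%). MAGEL2, the most changed, averaged 0.0686 CPM in BRCA1+ control and 0.290 CPM in BRCA1-null control cells (2.01 ± 0.658, adjusted p = 0.0339), followed by TRO (1.63 ± 0.563, adjusted p = 0.0429) and MAGEE1 (0.70 ± 0.197, adjusted p = 0.0192). The BRCA1+ control level of MAGEL2 was at the limit of detection (0.0750 and 0.0654 CPM in these libraries). Its folds against that group, also the one with entinostat below, are therefore uncertain. MAGED1, a p75 receptor partner gene, was lower (-0.89 ± 0.0663, adjusted p = 1.41e-05), as were MAGED2 and NDN by smaller amounts. With entinostat MAGEL2 rose by 2.55 ± 0.628 (adjusted p = 0.0278) and 1.75 ± 0.344 (adjusted p = 0.0148) in the same order of lines, and MAGED1 rose in BRCA1+ cells by 0.29 ± 0.0650 (adjusted p = 0.0208). No other gene of this list was called with the drug. Among 13 tested MAGE ligase partners, 2 were higher and 2 lower in BRCA1-null control cells (30.8%, all tested genes 42.2%), the largest being PJA1, a RING ligase gene (1.17 ± 0.121, adjusted p = 8.42e-05).

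Meiotic chromosome genes, the companions of SYCP1, were tested in 17 of 30 cases, with 4 higher and 4 lower in BRCA1-null control cells (47.1%, all tested genes 42.2%). REC8, the meiotic cohesin subunit, had 304 and 289 counts in BRCA1+ control and 5829 and 7693 in BRCA1-null control libraries, a log2 fold change of 4.28 ± 0.104 (adjusted p = 3.63e-08). SYCP2L and SYCE1L were higher by 0.74 and 0.47, and TEX19 (-2.33 ± 0.579, adjusted p = 0.0105), MEIOB (-0.86 ± 0.136, adjusted p = 0.000932) and SYCP2 (-0.67 ± 0.150, adjusted p = 0.00620) were lower. With entinostat MEIOB, a meiotic single-strand DNA binding protein gene, rose by 0.77 ± 0.119 (adjusted p = 0.00485) in the BRCA1+ line and 0.68 ± 0.138 (adjusted p = 0.0178) in the BRCA1-null line.

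Of 36 listed genes of germline gene silencing 33 were tested, with 3 higher and 9 lower in BRCA1-null control cells (36.4%, all tested genes 42.2%) and a median log2 fold change of -0.10. DNMT3B, a de novo DNA methyltransferase gene, was lower, at -1.48 ± 0.0715 (adjusted p = 1.51e-06), while DNMT1, the maintenance enzyme gene, was not called (-0.10 ± 0.0567, adjusted p = 0.201). The deacetylase genes HDAC1 (-0.51 ± 0.0557, adjusted p = 0.000118), HDAC2 (-0.36 ± 0.0573, adjusted p = 0.00100) and HDAC3 (-0.69 ± 0.0589, adjusted p = 2.92e-05) were lower too. MPHOSPH8 (0.70 ± 0.109, adjusted p = 0.000859), CBX3 and SIN3A were higher. EHMT2 is listed at 0 in every library, in a row placed on a haplotype sequence, as were 399 of the 423 rows on chromosome Y, haplotype or unplaced sequence, none of which is a member.

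Circadian clock genes were listed because PASD1 acts on their regulators. Of 23 tested, 4 were higher and 5 lower in BRCA1-null control cells (39.1%, all tested genes 42.2%). NPAS2, a partner that can stand in for CLOCK, was higher (0.96 ± 0.0871, adjusted p = 3.93e-05), as were ARNTL2, NR1D2 and CRY1 by 0.56, 0.49 and 0.40. PER3 (-1.38 ± 0.159, adjusted p = 0.000154), BHLHE40 (-0.74 ± 0.0865, adjusted p = 0.000164), DBP (-0.68 ± 0.216, adjusted p = 0.0310) and CSNK1D were among those lower. CLOCK itself (0.09 ± 0.0689, adjusted p = 0.306) and ARNTL, which encodes BMAL1 (0.03 ± 0.157, adjusted p = 0.909), were not called. Among the known targets of CLOCK-BMAL1, PER3, DBP and BHLHE40 were thus lower and NR1D2 and CRY1 higher in BRCA1-null cells. With entinostat PER2 alone was called, lower, at -0.80 ± 0.199 in BRCA1-null cells (adjusted p = 0.0363).

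**Figure D5:**
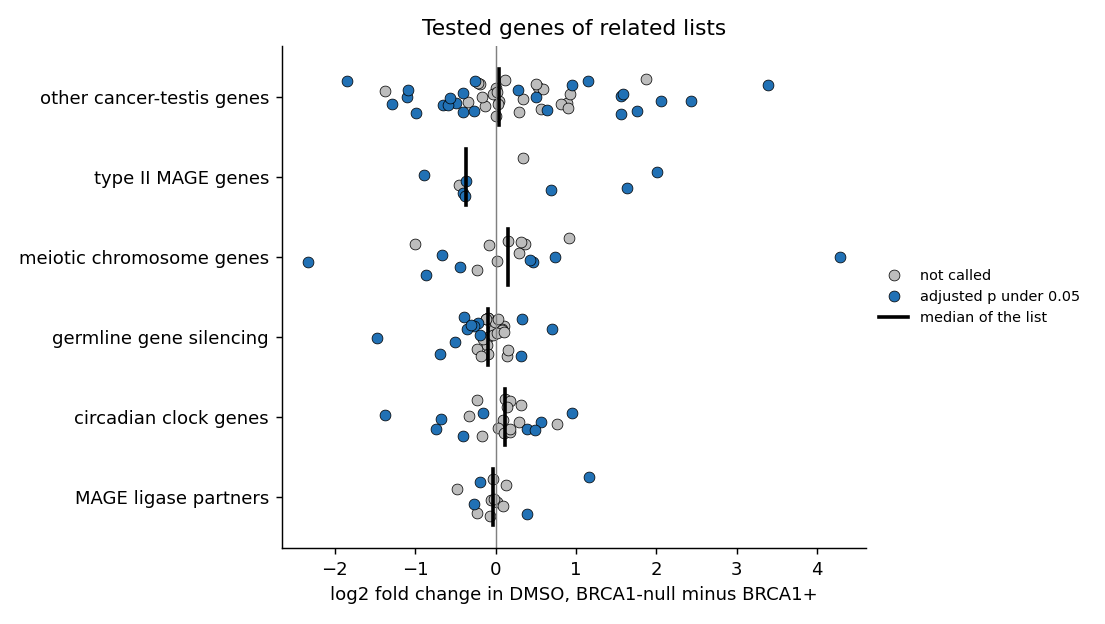
Log2 fold change between the lines in control cells (BRCA1-null minus BRCA1+) for the tested genes of 6 related lists, 1 point per gene, blue where the adjusted p was under 0.05, with a black bar at the list's median. Each list has genes on both sides of 0 and a median between -0.37 and 0.16, and REC8 and LDHC lie farthest to the right.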

How the data were processed

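RNA-seq of 8 libraries (2 for each of 4 groups) was used as a table of raw read counts per gene. Per the labels and the study's methods, the authors aligned poly(A) RNA reads to hg19 with TopHat and deposited counts made with NGSUtils; the treatment of reads with several positions, the strand setting and the read length are not given in the sources used here. All columns were mapped to samples by name, and 1 row without a gene name, which held 0% of the counts, was left out.

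Members and gene lists were chosen with earlier results of these data known. Genes were filtered with filterByExpr over the 4 groups (17714 kept), scaled by TMM and fitted over all 8 libraries with edgeR 4.0.16 (R 4.3.3) quasi-likelihood, and p-values were adjusted by Benjamini-Hochberg over all tested genes, with calls at 0.05. The steps were tested on simulated data. Genes were named if they were tested members, reached 10 counts, or headed a list; others are marked in the text. Alternatives were other scalings, filters, DESeq2 1.42.0, a replicate block, thinned counts, leaving out each library and, added after seeing the data, rows of identical counts entered once in family sums. Promoter windows and 50-base stretches came from GRCh37 with GENCODE v44lift37.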

Additional observations from a re-analysis of the deposited data

Results flagged for a closer look

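The log2 fold changes of MAGEA10 with entinostat had opposite signs in the lines, but neither passed the test. By edgeR they were 0.38 (adjusted p = 0.521) in BRCA1+ cells and -0.99 (adjusted p = 0.0701) in BRCA1-null cells. Both BRCA1+ entinostat libraries lay above both BRCA1+ control libraries, and both BRCA1-null entinostat libraries lay below both BRCA1-null control libraries. The difference of the responses, BRCA1-null minus BRCA1+, was -1.37 on the log2 scale, and by edgeR's interaction term it had an unadjusted p = 0.0152 and an adjusted p = 0.967, so it did not pass the test. Each library held 18 to 54 reads of this gene.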

How the results depend on the processing

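PASD1 kept its direction and its calls between the lines, in control and in entinostat, under every alternative run for it, and so did SSX2IP except with a minimum log2 change of 1, which its values do not reach. PASD1 ranged from -10.27 to -9.49 in control. Counts of members called with entinostat, and for the difference of responses, were 0 under every alternative run. The 4 members called between the lines in control became 2 with a stricter filter, with DESeq2's Wald test, with the legacy quasi-likelihood estimate and with a minimum log2 change of 1 added, and 2 to 3 when 1 library was left out. In entinostat the 2 members called became 5 without a filter (adding MAGEA3, MAGEA6 and SSX8, all lower in BRCA1-null cells), 1 with that minimum and 1 without the rows that share only first letters. Without a filter 5 members were called in control, MAGEA6 (-5.87) and MAGEA3 (-3.48) being added and MAGEA10 not called. That setting tested 47 members, and it called 32.4% of all 22140 genes in control and 30.6% in entinostat. The MAGEA10 call in control was lost in 13 alternatives and that of SPANXA2-OT1 in 5. The MAGEA sum in entinostat passed the test with the legacy estimate (-0.93), the replicate block (-0.90) and thinned counts (-1.21). The SSX sum passed it in control with the replicate block (-1.78), with rows of identical counts entered once (-2.17, chosen after seeing the data) and without BRCA1+ control replicate 1 (-2.24 to -0.94 over single libraries left out), and in entinostat with the replicate block (-1.47), with only the groups compared (-1.58), with rows of identical counts entered once (-1.85) and with 3 of the single libraries left out (-1.97 to -0.71 over all). The SPANX sum in control was not called with the Wald test (1.90) or without either of 2 libraries (1.37 to 2.77 over single libraries left out). The share of all tested genes called with entinostat ranged from 3.82% (without BRCA1+ entinostat replicate 2) to 24.4% (replicate block) in BRCA1+ cells and from 2.89% (without BRCA1-null entinostat replicate 1) to 20.5% (replicate block) in BRCA1-null cells. The cause of these shifts was not tested.

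Signs turned, in values that were not called and with ranges over single libraries left out, for SSX2IP with entinostat in BRCA1-null cells (-0.068 to 0.012), for MAGEB10 and the MAGEB sum in entinostat (-0.67 to 0.15 each) and with entinostat in BRCA1+ cells (-0.073 to 0.83 each), for SPANXA2-OT1 in entinostat (-0.41 to 2.16), with entinostat in BRCA1+ cells (-0.30 thinned, -1.52 to 1.21 without 1 library) and in the difference of responses (-2.52 to 0.21), and for the SPANX sum in entinostat (-0.36 to 2.22) and with entinostat in BRCA1+ cells (-0.021 Wald, -0.43 thinned, -1.84 to 0.95 without 1 library).

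Samples with the same replicate number deviated together weakly (correlations 0.052 to 0.287 over the pairs of groups), and no label says that a number marks a shared batch, so they were not taken as paired. With the replicate block MAGEA10 in control had an adjusted p = 0.0394 and SPANXA2-OT1 a value of 1.94. With 2 libraries a group, members of a few counts did not pass the filter on low counts, and how reads of near-identical copies were counted is not stated.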
